A study of Mus musculus with 6 samples.

Results

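The aminoacyl-tRNA synthetase genes of the mouse were followed through the loss of a metabolic label from nuclear RNA. The set held the 36 listed synthetase genes found by symbol among the 23281 genes of the deposited table. It comprised 16 genes whose symbol ends in 2, which code for mitochondrial enzymes, and 20 genes for cytosolic enzymes. Membership goes by gene symbol and uses no measured value, though the set was proposed with earlier results of these data known.

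The cells were female mouse embryonic stem cells of a hybrid background between the 129S and Cast strains, grown in embryonic stem cell medium. Every culture carried the same modified X-linked Xist gene. In it a TetOn promoter stood in place of the natural one on the 129S allele. A Bgl stem-loop had been put into the 3' end of the transcript. Every sample title also begins with BglHalo, and the Halo part of that name is not described further here. Every culture also received 1 µg/ml doxycycline, the inducer of the TetOn promoter, for 17.5 to 20 h beforehand, depending on the washout, followed by 500 µM 4-thiouridine (4sU) with doxycycline for 4 h. The 6 groups then differed in the washout in doxycycline with excess uridine (50 mM), which lasted 0, 30, 60, 90, 120 or 150 min; the 0 min culture had no washout. The labels give no doxycycline time per culture, so its length and that of the washout cannot be told apart. Doxycycline and 4sU were common to all groups, so the synthetase genes were measured in induced cells throughout. The study was designed around the half-life of Xist RNA, and each time point was a single library, with no replicate culture. Errors below come from how far the 6 libraries scatter around a straight line, and the gene tests also draw on the scatter of other genes.

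In SLAM-seq, 4sU built into new RNA is alkylated with iodoacetamide and is then read as C in place of T. The labelled share of a gene is the estimated percentage of its RNA that carries the label, and the T>C rate is the percentage of covered T positions read as C. The decay rate used below is how fast the labelled share declines per hour, from a line through its natural log with the sign turned, so that a rate of 0 means a level share and a positive rate means a declining one. The label was read in nuclei, so RNA decay and export to the cytoplasm cannot be told apart.

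Aminoacyl-tRNA synthetases join each amino acid to its own tRNAs and thereby set the genetic code at the protein level. They fall into structural classes I and II, which differ in the fold of the catalytic site. The mitochondrial enzymes are encoded in the nucleus, made in the cytosol and imported, and most of them have genes separate from those of the cytosolic enzymes; the glycyl and lysyl enzymes Gars and Kars serve both compartments from a single gene. A set of cytosolic synthetases is held together with scaffold proteins in the multi-tRNA synthetase complex.

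The 6 libraries held between 18558073 and 28535162 reads in genes, and the synthetase genes took 0.417% to 0.559% of them. The time given for each library rests on reading the bare number in its column name as the time in the matching sample title without its last digit. All 36 genes had enough reads for every test (a mean of at least 100). Mitochondrial members had 151 to 4678 reads in a library and cytosolic members 1129 to 17542. The T>C rate was low in the library labelled 30 min and high in the one labelled 60 min. Over all genes it was 2.69% in the first of these and 4.11% in the second. Whether these libraries carry each other's time was not tested; each fit was also run with their times exchanged, and edgeR then called total reads of 2 mitochondrial members, 9 cytosolic members and 2884 genes, in place of 0. The 8 embryonic stem cell markers examined summed to between 4996 and 5803 TPM (reads scaled for gene length and library size), and 8 fibroblast markers to between 186 and 265 TPM, with Thy1 at a median of 74.2, Col1a2 at 59.4 and Lum at 0.0647 TPM. Feeder cells had been discarded by pre-plating, per the labels, and the part of any remaining feeder RNA in the values below was not tested.

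The RNAs of most mitochondrial synthetases lost label over the washout. The labelled share fell for 12 of 16 mitochondrial members and for 0 of 20 cytosolic members (limma, Benjamini-Hochberg adjusted p below 0.05 over 11462 genes). It fell for 52.3% of all genes tested and rose for 1.19%, and no synthetase gene was called as rising. At an unadjusted p below 0.05 the counts were also 12 and 0, against 6440 of all 11462 genes falling and 217 rising. The median decay rate was 0.335 per h in mitochondrial members (jackknife SE 0.0522 over the 6 libraries), -0.034 per h in cytosolic members (SE 0.0443) and 0.247 per h over all genes tested (SE 0.0923). The middle 50% of all genes lay between 0.0517 and 0.493 per h. When each library was weighted by the width of the gene's posterior, 7 of 16 mitochondrial members passed, against 2951 of all genes in place of 5996.

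**Figure D1:**
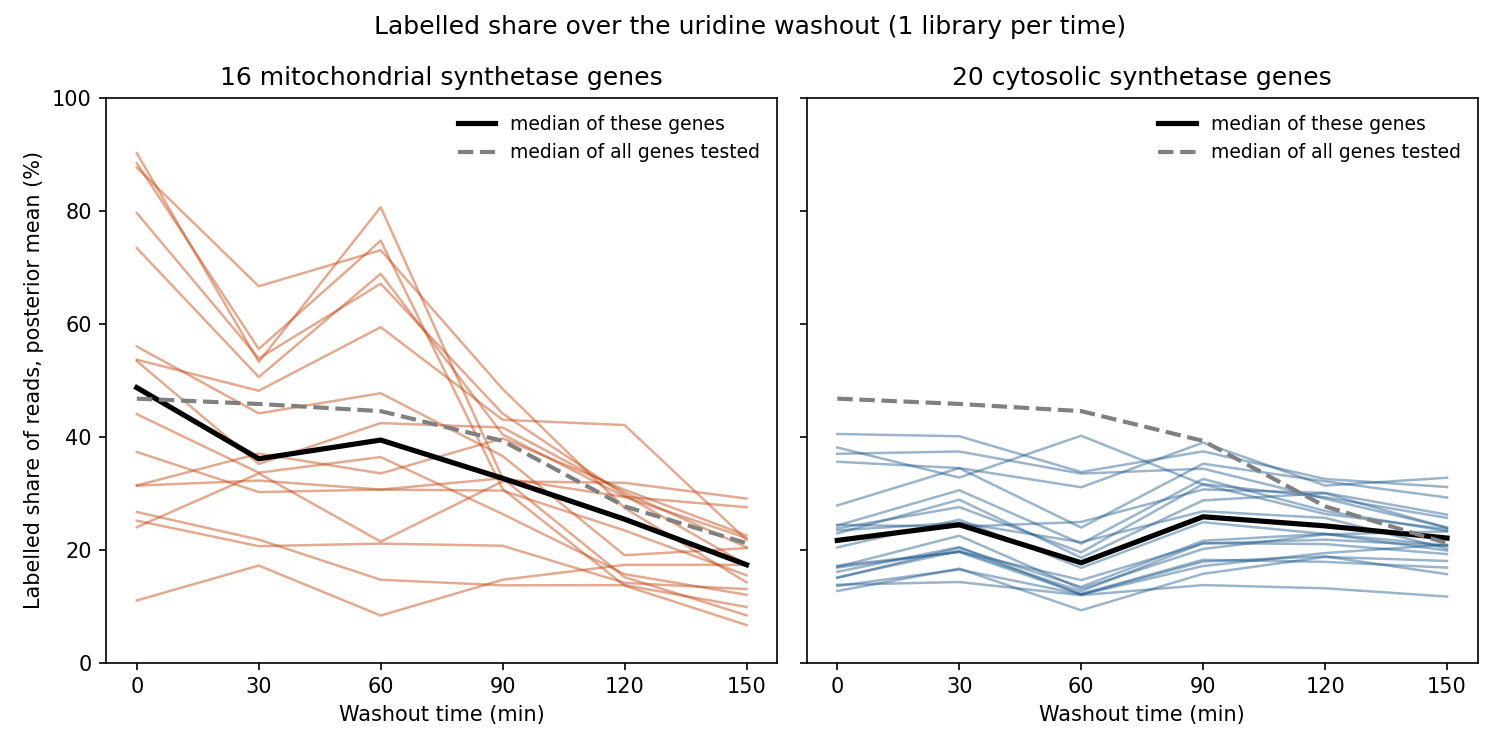
Labelled share (%) against washout time in minutes for the 16 mitochondrial members (left) and the 20 cytosolic members (right), each thin line a gene, the thick black line their median and the dashed line the median of all genes tested. The mitochondrial median goes through 48.7%, 36.1%, 39.4%, 32.6%, 25.4% and 17.3%, and the cytosolic median through 21.6%, 24.4%, 17.7%, 25.8%, 24.2% and 22.1%.

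At 0 min the mitochondrial members were spread from a share of 11.01% to 90.2%, and the cytosolic members from 12.7% to 40.5%. At 150 min the ranges were 6.65% to 29.1% and 11.7% to 32.7%. The mitochondrial median of 17.3% was then below the cytosolic median of 22.1%, while at 0 min it had been 48.7% against 21.6%. Over all genes tested the median share was 46.8%, 45.8%, 44.5%, 39.3%, 27.7% and 21.1% along the washout. In the library labelled 60 min the share was above that of the 30 min library in 11 of 16 mitochondrial members, in 2 of 20 cytosolic members and in 47.1% of all genes.

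The fastest loss among the synthetases was that of Mars2, the mitochondrial methionyl enzyme, which charges both the initiator and the elongator function of the mitochondrial methionine tRNA. Its labelled share was 88.5%, 55.5%, 74.7%, 30.8%, 13.6% and 6.65% at 0, 30, 60, 90, 120 and 150 min. The share was highest at 0 min and lowest at 150 min, with the 60 min library above the 30 min one. The decay rate was 1.03 ± 0.127 per h (SE; limma adjusted p = 5.12e-05), a half-life of 40.3 min (35.9 to 46.0 min within 1 SE), and 98.4% of all genes tested had a lower rate. Pars2, the mitochondrial prolyl enzyme, had shares of 90.2%, 53.3%, 80.7%, 32.6%, 15.1% and 8.37%. The same order of libraries was seen as for Mars2, from the highest share of any synthetase at 0 min. Its decay rate was 0.947 ± 0.127 per h (SE; limma adjusted p = 5.15e-05), which gave a 43.9 min half-life, on 206 to 391 reads per library; with posterior weights the adjusted p was 0.0684.

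Hars2 and Yars2 followed. Hars2, the mitochondrial histidyl enzyme, had shares of 87.7%, 66.7%, 73.0%, 48.5%, 27.4% and 14.2%. Its decay rate of 0.696 ± 0.108 per h gave 59.8 min as its half-life (limma adjusted p = 9.7e-05). Yars2, the mitochondrial tyrosyl enzyme, had shares of 79.6%, 53.9%, 67.1%, 44.1%, 29.7% and 17.4%, and its half-life came to 74.1 min (limma adjusted p = 0.000283). In both genes the 3 early libraries lay above the 3 late ones. Tars2, the mitochondrial threonyl enzyme, started lower, with shares of 44.0%, 33.6%, 36.4%, 26.3%, 15.7% and 12.01%, and its half-life was 79.9 min (limma adjusted p = 0.000299). Nars2, the mitochondrial asparaginyl enzyme, had 56.0%, 44.1%, 47.7%, 36.6%, 19.0% and 20.3%, with 92.5 min as its half-life (limma adjusted p = 0.00114).

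Ears2, Lars2, Sars2, Wars2, Cars2 and Vars2, the mitochondrial enzymes for glutamate, leucine, serine, tryptophan, cysteine and valine, fell with half-lives between 103 min (Ears2) and 164 min (Vars2). Ears2 had the highest initial share within this slower set, at 73.4%. The others had 53.6% (Wars2), 53.4% (Sars2), 37.3% (Cars2), 26.7% (Lars2) and 25.1% (Vars2). Wars2, with the fewest reads of all members, had shares of 53.6%, 48.1%, 59.4%, 43.0%, 42.1% and 21.7%. Its lowest share was in the 150 min library, and the other 5 libraries lay within 42.1% to 59.4%. The decay rate of Wars2 was 0.300 ± 0.104 per h (SE; limma adjusted p = 0.0231), and without the 150 min library it was 0.120 per h with an adjusted p of 0.501.

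The remaining 4 mitochondrial members did not pass the test. Fars2, the mitochondrial phenylalanyl enzyme, had shares of 31.4%, 37.0%, 33.5%, 39.7%, 30.6% and 22.5%, a decay rate of 0.118 ± 0.0961 per h (SE; limma adjusted p = 0.327). Aars2, the mitochondrial alanyl enzyme, had shares of 31.3%, 32.2%, 30.6%, 32.6%, 29.3% and 22.1%, a decay rate of 0.113 ± 0.0895 per h (SE; limma adjusted p = 0.313). In both genes the 150 min library was the lowest and the 120 min library the next lowest, and the earlier libraries showed no order in time. Rars2, the mitochondrial arginyl enzyme, had shares of 24.0%, 33.5%, 21.4%, 32.1%, 31.8% and 29.1%, and Iars2, the mitochondrial isoleucyl enzyme, had 11.01%, 17.2%, 8.33%, 14.7%, 17.3% and 17.3%. For both, the 0 and 60 min libraries were the lowest. The decay rate was -0.069 ± 0.0967 per h for Rars2 (SE; limma adjusted p = 0.580) and -0.163 ± 0.111 per h for Iars2 (SE; limma adjusted p = 0.236), and that of Iars2 was the lowest of all 36 members. With the times of the 30 and 60 min libraries exchanged, the share of Iars2 was called as rising (adjusted p = 0.0164). The share fell for 7 of 9 class I and 5 of 7 class II mitochondrial members.

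**Figure D2:**
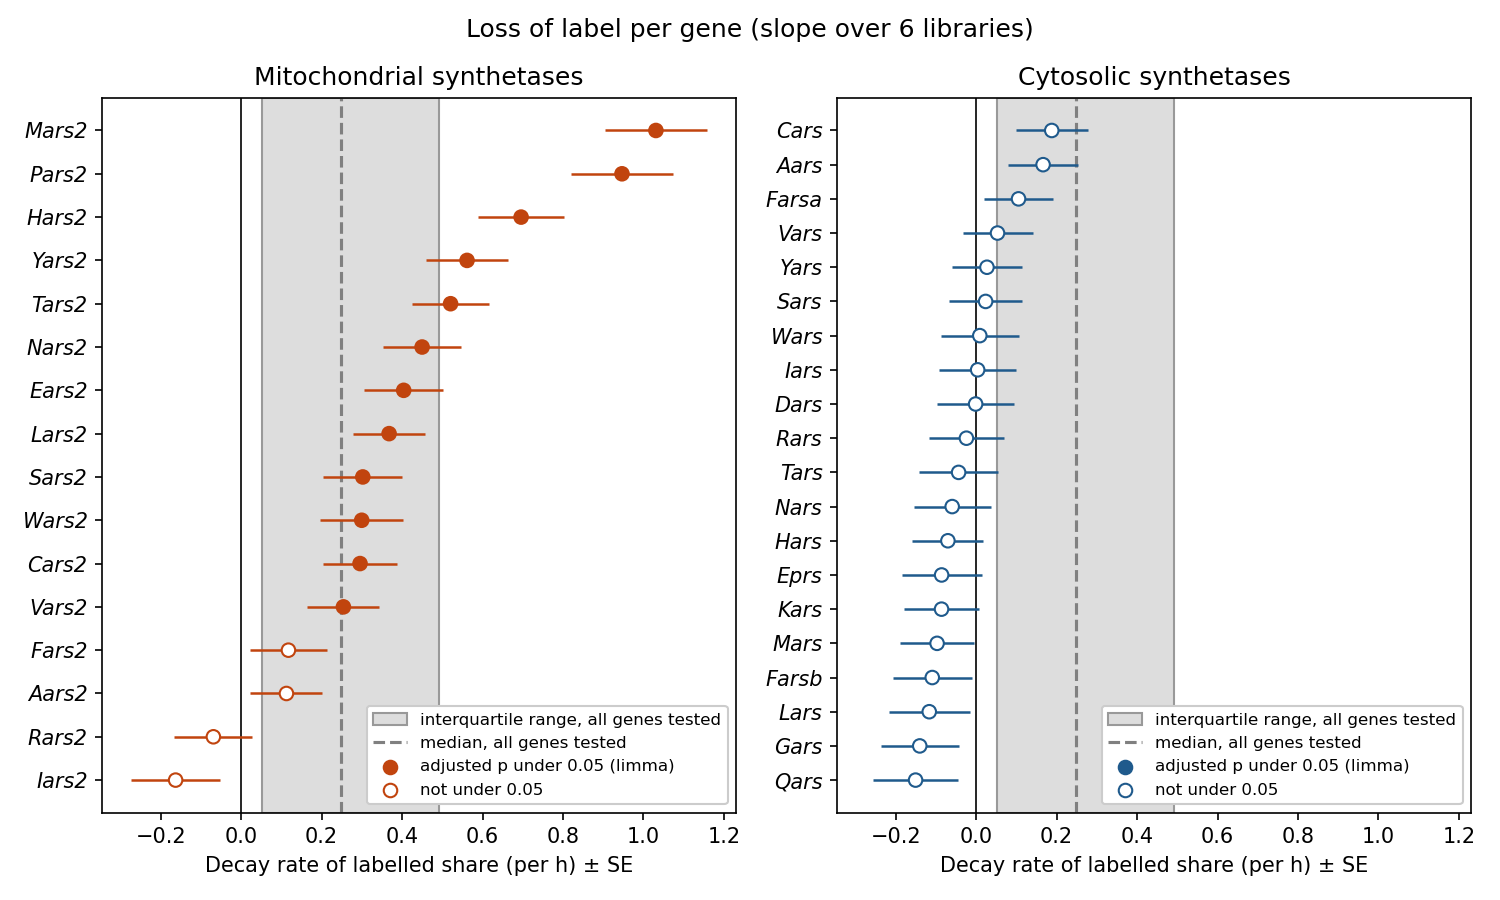
Decay rate of the labelled share per h, with 1 SE as the bar, for each of the 36 synthetase genes, with mitochondrial members on the left and cytosolic ones on the right. Filled points passed limma's test at an adjusted p below 0.05 and open points did not, the dashed line is the median of all genes tested (0.247 per h), and the grey band is their interquartile range; mitochondrial rates run between -0.163 and 1.03 per h and cytosolic rates between -0.151 and 0.188 per h.

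No cytosolic member passed the test on the labelled share. The highest decay rates among them were those of Cars and Aars, the cysteinyl and alanyl enzymes. Cars had shares of 38.1%, 32.8%, 40.2%, 31.5%, 26.3% and 23.6%, and a decay rate of 0.188 ± 0.0900 per h (SE; limma adjusted p = 0.0914). Aars had shares of 37.0%, 37.4%, 33.5%, 34.3%, 29.0% and 23.9%, and a decay rate of 0.166 ± 0.0873 per h (SE; limma adjusted p = 0.123). In both, the libraries of 120 and 150 min were the lowest. Farsa, the catalytic subunit of the phenylalanyl enzyme, had shares of 40.5%, 40.1%, 33.8%, 37.4%, 32.5% and 31.1% (0.105 ± 0.0863 per h), and Vars, the valyl enzyme, had 13.8%, 14.3%, 11.9%, 13.7%, 13.2% and 11.7% (0.0531 ± 0.0870 per h). The 6 libraries of Vars lay within 3 percentage points of each other. Yars, the tyrosyl enzyme, had 35.6%, 34.5%, 31.1%, 39.0%, 31.4% and 32.7%, with no order in time.

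The lowest cytosolic rates belonged to Qars, Gars, Lars and Farsb, the glutaminyl, glycyl and leucyl enzymes and the second subunit of the phenylalanyl enzyme. Qars had shares of 12.7%, 16.6%, 9.26%, 15.7%, 18.7% and 18%, and Gars had 15%, 20.3%, 13.4%, 21.6%, 22.8% and 20.8%. In both genes the 0 and 60 min libraries were the lowest and the 120 min library was the highest. Lars had shares of 16.9%, 22.5%, 13.1%, 20.1%, 22.7% and 23.2%, and Farsb had 15.1%, 19.8%, 12.6%, 21.2%, 20.99% and 19.2%. The decay rates were -0.151 ± 0.105 for Qars, -0.140 ± 0.0973 for Gars, -0.117 ± 0.101 for Lars and -0.109 ± 0.0986 per h for Farsb (SE), and the lowest limma adjusted p among them was 0.245. The 2 subunits of the phenylalanyl enzyme, which work as a heterotetramer, thus differed in share at 0 min by 40.5% for Farsa against 15.1% for Farsb.

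The 8 members of the multi-tRNA synthetase complex (Eprs, Iars, Lars, Mars, Qars, Rars, Kars and Dars) had a median decay rate of -0.086 per h, and the other 12 cytosolic members 0.016 per h. Of the complex members, 1 of 8 had a rate above 0 (Iars, 0.00375 per h), against 7 of the other 12 cytosolic members. Over all genes tested, 9386 of 11462 had a rate above 0. Shares at 0 min were 12.7% to 27.8% in complex members, against 13.8% to 40.5% in the other cytosolic members. Kars, the lysyl enzyme of the complex and of mitochondria, had shares of 13.6%, 16.5%, 12.1%, 17.9%, 18.8% and 15.7%. Neither Kars nor Gars, the pair that also supplies mitochondria, was placed among the fast mitochondrial members by its labelled share.

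The T>C rate, which uses no model of the label, fell for 13 of 16 mitochondrial and 3 of 20 cytosolic members, against 66.9% of all genes tested, and was called as rising for 0% of them. The extra mitochondrial gene was Fars2 (limma adjusted p = 0.0406), and the cytosolic ones were Cars, Aars and Farsa (adjusted p = 0.0247, 0.0282 and 0.0459). Fars2 and Farsa lost this call with no read minimum (adjusted p = 0.0632 and 0.0629) and when only bases covered by both mates were used (0.0613 and 0.0797). Cars had T>C rates of 4.09%, 2.31%, 4.68%, 2.31%, 1.45% and 1.28%, with the 60 min library the highest. Mars2 had 8.52%, 3.23%, 7.97%, 2.00%, 0.846% and 0.416%, a decline at 1.17 ± 0.193 per h (SE; limma adjusted p = 0.000153). Gars had 1.56%, 1.49%, 1.58%, 1.68%, 1.36% and 1.08%, which left the last 2 libraries lowest. All 36 members had a T>C rate that declined in its point estimate, as did 11301 of all 11459 genes tested. The level or rising shares of most cytosolic members thus do not carry over to the T>C rate. The median T>C decay rate was 0.580 per h in mitochondrial members, 0.227 per h in cytosolic members and 0.512 per h over all genes tested. In each of the 12 mitochondrial members whose share fell, the half-life was shorter by T>C rate than by share. It was 35.5 against 40.3 min for Mars2, 57.6 against 103 min for Ears2 and 85.8 against 164 min for Vars2. The median T>C rates in mitochondrial members were 4.97%, 2.67%, 4.31%, 2.25%, 1.34% and 0.897%, and in cytosolic members 2.35%, 1.77%, 2.11%, 2.05%, 1.42% and 1.12%. The T>C rate was higher at 60 than at 30 min in 15 of 16 mitochondrial members, 17 of 20 cytosolic members and 94.2% of all genes. Without the 150 min library, 5 mitochondrial members and 0 cytosolic members fell, against 2643 of all genes in place of 7664. Without the 0 min library 8 mitochondrial and 0 cytosolic members fell, against 5630 of all genes. Without the 120 min library 0 cytosolic members and 5719 of all genes did. Without the 60 min library 8 cytosolic members and 9213 of all genes did. The order of the 36 members was nearly the same by both measures, which share their reads (Spearman rho 0.992).

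Setting the enzymes of a single amino acid side by side gave 17 pairs, with Eprs, the joint glutamyl and prolyl enzyme, set against Ears2 and Pars2, and Fars2 set against both subunits of the cytosolic phenylalanyl enzyme. The mitochondrial gene had the higher decay rate in 14 of 17 pairs, in 11 of them by more than 2 SE over the 6 libraries. The largest differences, mitochondrial minus cytosolic, were those of methionine (1.13 ± 0.235 per h), proline (1.03 ± 0.283), histidine (0.766 ± 0.114) and threonine (0.564 ± 0.153, SE). For methionine the share at 0 min was 88.5% in Mars2 against 16.8% in Mars, and at 150 min it was 6.65% against 20.7%. The cytosolic gene had the higher rate for isoleucine (-0.167 ± 0.0784 per h), alanine (-0.0538 ± 0.0216) and arginine (-0.0448 ± 0.0227, SE), of which the first 2 were beyond 2 SE. The pairs of cysteine (0.108 ± 0.0651 per h), tryptophan (0.291 ± 0.147) and Fars2 with Farsa (0.0121 ± 0.0787, SE) differed by less than 2 SE. The T>C rate also declined faster in the mitochondrial gene in 14 of 17 pairs. These differences are descriptions with no p, and the 2 genes of a pair come from the same 6 libraries. Their SEs come from an ordinary line for each pair and, unlike the limma SEs of single genes, draw on no other genes.

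**Figure D3:**
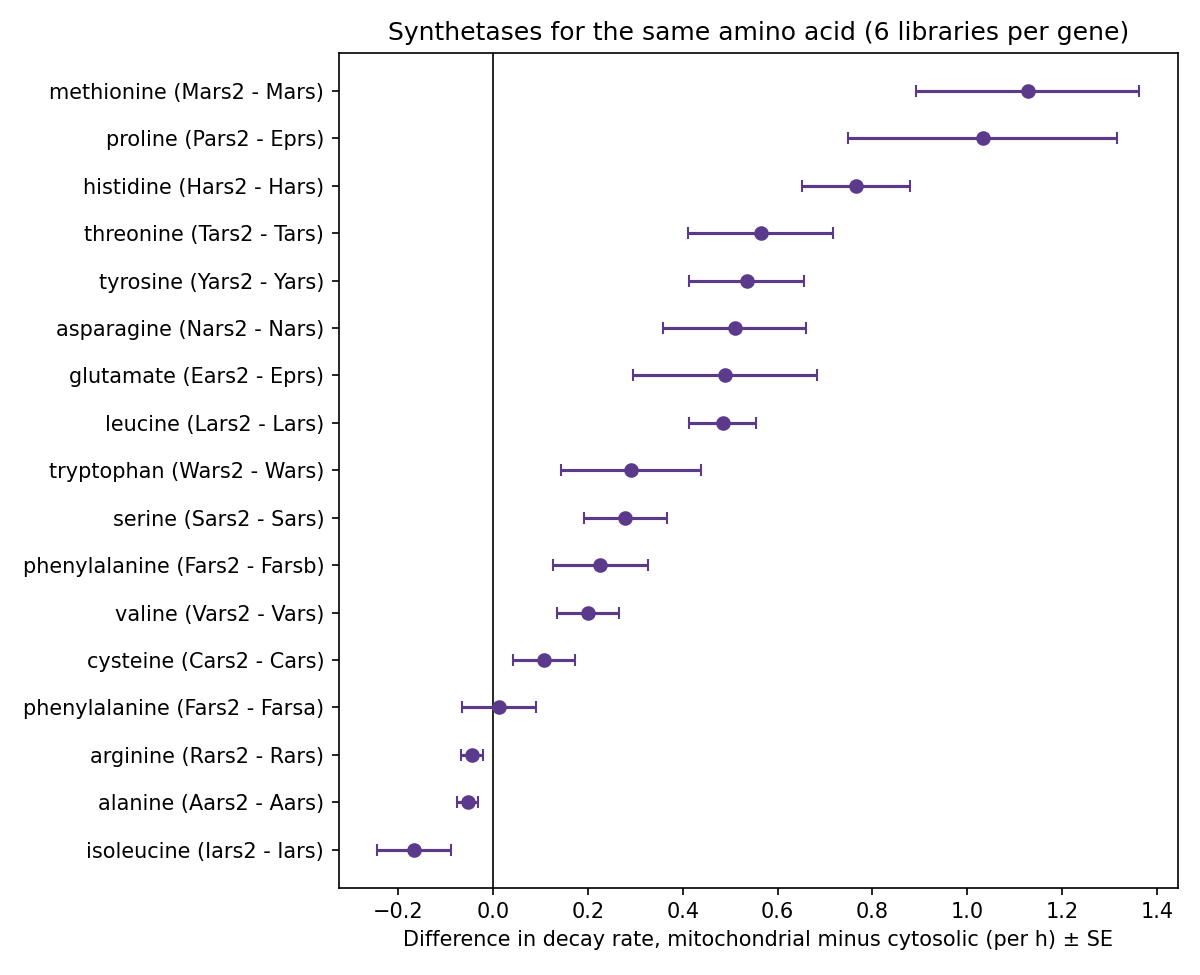
Difference of the decay rates, mitochondrial minus cytosolic, per h, with 1 SE over the 6 libraries as the bar, for the 17 pairs of enzymes that serve the same amino acid. Points right of 0 are pairs with the higher rate in the mitochondrial gene (14 of 17), led by methionine at 1.13 per h; isoleucine at -0.167 per h lies farthest to the left.

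The mitochondrial members were also less abundant. The level per length, as the median TPM of the 6 libraries, was 4.73 (Wars2) to 69.0 (Iars2) in mitochondrial members with a median of 20.3, and 67.0 (Yars) to 409 (Kars) in cytosolic members with a median of 144, against 28.8 over all genes tested. The cytosolic gene had the higher level in 17 of 17 pairs, by 1.99-fold for isoleucine to 25.5-fold for tryptophan. The 2 compartments overlapped only in Iars2 and Yars. Iars2 had 79.3, 68.8, 70.3, 64.4, 67.8 and 69.1 TPM along the washout, and Yars had 79.0, 74.4, 82.7, 59.5, 56.0 and 58.3 TPM. These ranges overlapped, so the order of the pair is within their scatter. Tars2, next below Iars2, had 46.3, 49.2, 42.6, 41.5, 41.5 and 44.5 TPM. At the low end Wars2 had 4.27, 4.94, 4.48, 4.51, 4.97 and 5.14 TPM, and Nars2 had 8.54, 10.1, 8.14, 8.37, 9.62 and 8.63 TPM. Those 2 ranges did not overlap. Of the cytosolic members, Kars had 441, 400, 490, 419, 346 and 348 TPM and Gars 297, 262, 311, 266, 236 and 235 TPM. Every library of Kars was above every library of Gars. Farsa, next above Yars, had 80.7, 85.9, 82.3, 79.0, 78.8 and 83.6 TPM, which overlapped with Yars in its early libraries.

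The decay rate and the level went in opposite directions across the 36 members (Spearman rho -0.717). Within the 16 mitochondrial members rho was -0.368, within the 20 cytosolic members -0.298, and over the 11462 genes tested -0.261. The genes share the same libraries, and these values carry no p.

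**Figure D4:**
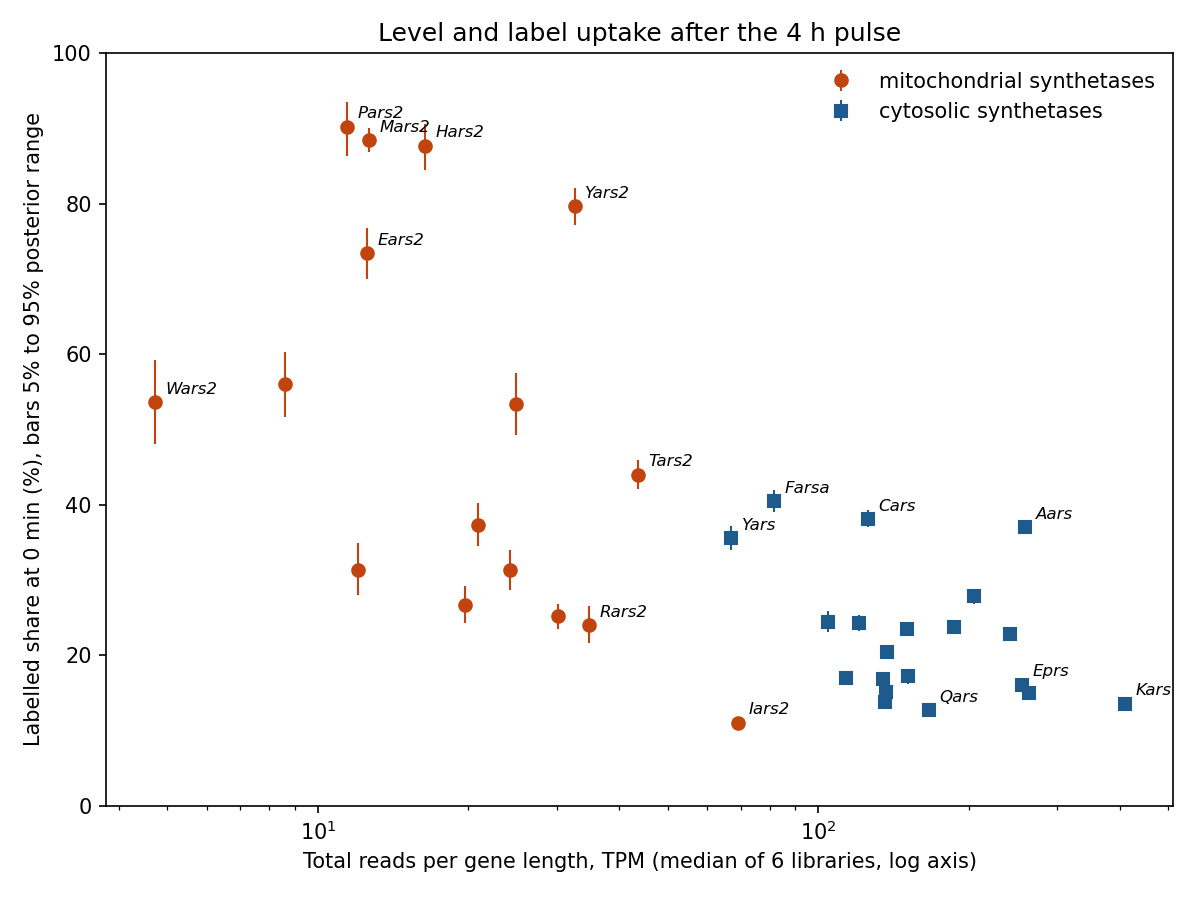
Labelled share at 0 min (%), with the 5% to 95% posterior range as the bar, against the level per length (median TPM of the 6 libraries, log axis) for the 16 mitochondrial members (circles) and the 20 cytosolic members (squares). Pars2 and Mars2 stand at 90.2% and 88.5% with levels of 11.4 and 12.6 TPM, the cytosolic members all lie at or below 40.5%, and Iars2 at 69.0 TPM and 11.01% lies beside them.

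The share reached after 4 h of labelling gives a further reading of turnover, as the half-life that would produce it at steady state. This uptake half-life had a median of 252 min in mitochondrial members, 685 min in cytosolic members and 264 min over all genes tested. It was 71.6 min for Pars2, 77.1 min for Mars2, 79.4 min for Hars2 and 105 min for Yars2, the 4 shortest of all members, and 1426 min for Iars2, the longest of all members. In each of the 12 mitochondrial members whose share fell, the uptake value was longer than the half-life read from the washout. For Mars2 it was 77.1 min against 40.3 min, for Tars2 287 min against 79.9 min and for Lars2 536 min against 113 min. The share at 0 min and the decay rate were ordered alike across the 36 members (rho 0.906, and 0.896 with the 0 min library left out of the decay rate), and also over all genes tested (0.913). The uptake value rests on the 0 min library alone.

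Total reads of the synthetase genes were not called as changed by edgeR, and DESeq2 called 2 of them. edgeR's quasi-likelihood slope on time passed for 0 of 36 members and for 0% of the 15743 genes tested, and at an unadjusted p below 0.05 it named 9 members and 3416 genes. Of the members, 29 of 36 had a slope below 0, with 10 of 16 in the mitochondrial and 19 of 20 in the cytosolic set. Of the 11462 genes in the share test, 6035 had a slope above 0. The median slope was -0.06 log2 units per h in mitochondrial members, -0.14 in cytosolic members and -0.0039 over the 15743 genes. In nuclei taken in bulk, fewer cells of a type and less RNA per cell cannot be told apart. The DESeq2 calls were Vars2 and Cars, both falling, against 2.51% of 13606 genes falling and 2.27% rising. Vars2, the mitochondrial valyl enzyme, had 63.5, 55.7, 66.3, 42.6, 40.4 and 42.4 CPM (reads scaled for library size), and its slope was -0.28 ± 0.09 log2 units per h (SE; DESeq2 adjusted p = 0.0380, edgeR adjusted p = 0.111). Cars had 174, 154, 181, 144, 115 and 108 CPM, and its slope was -0.28 ± 0.08 (SE; DESeq2 adjusted p = 0.0172, edgeR adjusted p = 0.102). In Vars2 the 3 early libraries lay above the 3 late ones, and in Cars likewise. Hars2 was the only member with a rising slope at an unadjusted p below 0.05, with 17.2, 21.1, 16.3, 19.2, 22.1 and 26.1 CPM (0.19 ± 0.08 log2 units per h, SE; edgeR adjusted p = 0.190).

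Cars and Aars differed between scales. When the labelled share was multiplied by the gene's CPM to give a labelled abundance, both fell (limma adjusted p = 0.00885 and 0.0210). Then 2 of 20 cytosolic members passed in place of 0, and 11 of 16 mitochondrial members in place of 12. Of all genes, 5440 fell in place of 5996. On that scale the median decay rate was 0.408 per h in mitochondrial members and 0.0472 per h in cytosolic members, so the sign of the cytosolic median depends on the scale.

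Members with few introns were found among the fastest and the slower ones. Mars2 (chr1:55237177-55248470, plus strand, mm10) has no intron in its coding transcript, and Pars2 (chr4:106651069-106655282, plus strand) has 1 intron. Yars2 (chr16:16302965-16309640, plus strand) has 4 introns. Hars2, between Pars2 and Yars2 in decay rate, has 12 introns and Tars2, just below Yars2, has 17, while the slower Wars2 has 5 and Fars2, which did not pass, has 7. The slow Iars2 (chr1:185284726-185329396, minus strand) has 22 introns and lies 33647 bp from Eprs. Mitochondrial members have 0 to 28 introns with a median of 13.5, and cytosolic members 10 to 33 with a median of 16.5. The decay rate went down with the number of introns among the 16 mitochondrial members (Spearman rho -0.685), among the 20 cytosolic members (rho -0.240) and over the 11348 genes with a coding transcript (rho -0.241). The 661 genes with 0 or 1 intron had a median decay rate of 0.608 per h. Exons of 13 members overlap exons of a gene on the other strand, among them Iars2 over 2148 nt (Rab3gap2 and 2010103J01Rik) and Hars2 over 195 nt (Hars), and Aars overlaps Exosc6 on its own strand over 1326 nt. The libraries came from a stranded kit, but no source used here states whether the counting used strand, so reads in these stretches are uncertain.

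The promoters were searched for TGATGNAA on both strands, the composite element known to be bound by ATF4 with C/EBP proteins in genes that answer amino acid shortage, several cytosolic synthetase genes among them. RefSeq promoter windows (GRCm38.p6, 250 bases before and 50 after the annotated start) were matched for 27 of 36 members. No window was matched for the cytosolic Cars, Hars, Lars, Nars, Rars, Vars and Wars or for the mitochondrial Hars2 and Pars2. Those promoters, with 2 of the fastest members among them, were not searched. The motif stood in a window of 0 of the 14 mitochondrial genes with a window and 5 of the 13 cytosolic ones (38.5%), against 4.51% of 27025 genes; Aars2 had more than 1 window, and of all 32851 windows 3.97% held the motif. The 5 matching stretches and that of Mars2, the fastest member, which has no match in its window, are shown 5' to 3' on the strand of the gene with the match in capitals (TTGCATCA and TTTCATCA are the motif read on the other strand). They are Aars chr8:111033692-111033891 (plus strand), Gars chr6:55037941-55038050 (plus), Iars chr13:49682070-49682179 (plus), Tars chr15:11399609-11399718 (minus), Yars chr4:129189843-129189952 (plus) and Mars2 chr1:55237117-55237226 (plus).
Aars: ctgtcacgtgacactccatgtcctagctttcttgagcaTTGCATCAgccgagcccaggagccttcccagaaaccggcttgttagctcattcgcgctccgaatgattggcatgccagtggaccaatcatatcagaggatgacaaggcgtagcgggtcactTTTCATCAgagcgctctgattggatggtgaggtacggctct
Gars: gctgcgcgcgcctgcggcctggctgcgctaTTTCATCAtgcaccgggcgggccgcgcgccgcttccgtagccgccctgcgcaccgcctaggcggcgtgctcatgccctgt
Iars: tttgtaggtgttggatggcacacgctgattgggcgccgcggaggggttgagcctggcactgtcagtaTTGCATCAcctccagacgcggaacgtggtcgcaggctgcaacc
Tars: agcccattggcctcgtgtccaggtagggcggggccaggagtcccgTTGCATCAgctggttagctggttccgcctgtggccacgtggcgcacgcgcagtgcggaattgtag
Yars: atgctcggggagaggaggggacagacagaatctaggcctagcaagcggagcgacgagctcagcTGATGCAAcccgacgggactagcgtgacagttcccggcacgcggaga
Mars2: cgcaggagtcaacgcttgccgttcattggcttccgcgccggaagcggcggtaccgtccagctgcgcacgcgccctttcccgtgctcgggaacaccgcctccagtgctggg

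Counted from the annotated start, with no position 0, the match of Gars begins at -30, that of Tars at -15, that of Yars at 4 and that of Iars at 8, and Aars holds matches at -112 and 10. A match describes letters and not a bound site, and these data hold no measurement of binding. The 5 genes had shares at 0 min of 37.0% (Aars), 15% (Gars), 20.4% (Iars), 22.9% (Tars) and 35.6% (Yars), and none of them passed the test on the labelled share.

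Lists of other genes of the pathway were read in the same way. Of the 3 scaffold proteins of the complex, Eef1e1 fell with a half-life of 82.1 min, while Aimp1 had a decay rate of 0.173 and Aimp2 of 0.104 per h and did not pass (adjusted p = 0.109 and 0.336). Among 14 genes of tRNA maturation, editing and export, 8 fell and 0 rose, a share near the 52.3% of all genes that fell, with a median rate of 0.334 per h against 0.247 per h over all genes. The fastest was Elac1, a tRNA 3' processing enzyme, with shares of 71.6%, 53.0%, 60.1%, 24.4%, 15.3% and 3.01%. It had 108 to 185 reads per library, and its half-life was 35.6 min (limma adjusted p = 5.15e-05). The 5% to 95% posterior range of its 150 min share ran from 0.87% to 5.97%. The lowest rate was that of Dtd1, a D-aminoacyl-tRNA deacylase, at -0.198 per h with shares of 11.2%, 17.3%, 7.70%, 10.3%, 20.3% and 19.3%. Elac1 was lowest in the 150 min library, and Dtd1 in the 60 min library.

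Within that list, the genes that act on mitochondrial charged tRNAs included both kinds. Qrsl1 and Gatb, subunits of the amidotransferase that turns glutamyl-tRNA made by Ears2 into glutaminyl-tRNA, fell with half-lives of 75.3 and 139 min, and Gatc, the remaining subunit, did not pass (0.120 per h, adjusted p = 0.288). Mtfmt, which formylates the methionyl-tRNA made by Mars2, fell with a half-life of 100 min. These 4 genes were singled out after their values were seen.

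None of 6 genes for delivery of charged tRNA to the ribosome passed the test, against 52.3% of all genes that fell. Their decay rates ran between -0.0335 per h for Eef1g and 0.192 per h for Tsfm, the mitochondrial nucleotide exchange factor. The median was 0.031 per h, against 0.247 per h over all genes. Eef1g had shares of 15%, 17.8%, 11.7%, 18.4%, 17.2% and 15.7%, and Tsfm had 35.3%, 30.8%, 36.6%, 30.3%, 28.4% and 19.6%. Only the 150 min library of Tsfm stood below its others by more than 5 percentage points.

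Of 8 genes of the amino acid response, 6 fell, against 52.3% of all genes, with a median rate of 0.541 per h against 0.247 per h. Atf4, the transcription factor of that response, had shares of 83.6%, 47.2%, 74.4%, 29.9%, 14.4% and 6.81% and its half-life was 42.8 min (limma adjusted p = 5.17e-05). Its libraries were ordered as those of Mars2. Asns, asparagine synthetase and a target of Atf4, had 30.2%, 35.7%, 22.0%, 34.5%, 36.9% and 35.9%, a decay rate of -0.0807 per h that did not pass (adjusted p = 0.522). Of 6 tested amino acid transporters out of 7 listed, 4 fell, against 52.3% of all genes. Slc38a2, a sodium-coupled neutral amino acid transporter, was fastest with shares of 85.7%, 60.1%, 70.3%, 35.0%, 16.9% and 8.40% and its half-life was 45.1 min (limma adjusted p = 5.12e-05). Slc7a5, the large neutral amino acid transporter, was lowest with 32.9%, 41.1%, 27.2%, 43.0%, 44.1% and 39.1% (-0.0873 per h, adjusted p = 0.478). On the T>C rate 3 of 3 scaffold, 8 of 14 tRNA, 1 of 6 delivery, 6 of 8 response and 4 of 6 transporter genes fell, against 66.9% of all genes. edgeR called no total read slope in these lists. DESeq2 called Sesn2 (-0.58 log2 units per h, adjusted p = 5.4e-05), Slc1a4 (-0.32, adjusted p = 0.0114) and Slc1a5 (-0.28, adjusted p = 0.0224) as falling and Eef1e1 (0.31, adjusted p = 0.0264) as rising, against 2.51% of genes falling and 2.27% rising, and these 4 genes are named for those calls.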

How the data were processed

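Nuclear RNA of 6 cultures was sequenced, 1 library per washout time, from 1 µg RNA each as paired ends of 81 nt in a stranded total RNA kit, per the labels' protocols. Reads were aligned with STAR 2.5.2b to mm10, per the submitters' processing notes; what program made the table of genes, with which annotation and strand setting, is not stated in any source used here. The table's columns carry a number without a unit or none, read here as the title's time without its last 0 and as 0 min, so every slope rests on that reading. Per the file headers, the deposited table held raw read counts for each gene, counts of conversions and of covered T positions (coverage) printed with 4 significant digits, and the labelled share as a posterior fraction with its 5% and 95% quantiles. Another 18 columns of values per sample were not used. What the samples of 1 time point share beyond the labels is not given. The p-values measure the scatter around a line with 4 residual degrees of freedom. Those of limma, edgeR and DESeq2, with their SEs, are moderated, so they also use the scatter of other genes in the same 6 libraries.

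From these files, limma 3.58.1 (R 4.3.3) fitted the natural log of the share, and of conversions over coverage, on hours for genes that averaged 100 reads or more and had values above 0, with Benjamini-Hochberg adjustment over all genes tested and a threshold of 0.05. The half-life is the natural log of 2 over the decay rate. It takes a single rate for the whole washout, and whether the rate was constant was not tested. edgeR 4.0.16 (TMM, filterByExpr, quasi-likelihood) fitted the counts, with DESeq2 1.42.0 as alternative. TPM used the table's gene lengths. Scripts were tested on simulated data. Values in every library are printed for the 4 highest and 4 lowest decay rates and the 2 highest and 2 lowest levels in each compartment, and for members called in total reads; of the other lists, for the highest and lowest rate. Members and lists were chosen with earlier results of these data known. Gene positions are from GENCODE M21 (mm10), promoters from RefSeq.

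Alternatives left out each library, exchanged or left out the 30 and 60 min libraries, changed the read minimum, used posterior weights, a logit scale, labelled abundance or conversions in bases that both mates cover, and changed the count tool and its filter.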

Additional observations from a re-analysis of the deposited data

How the results depend on the processing

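No paired analysis was possible because each washout time had 1 library. The count of mitochondrial members whose labelled share fell (12) was 7 with posterior weights and 8 to 12 when any library was left out. With the 30 and 60 min times exchanged, 1 mitochondrial member (Iars2) and 1 cytosolic member (Qars) rose and 1 cytosolic member (Cars) fell; with labelled abundance 2 cytosolic members fell, and the median decay rate was 0.408 per h in mitochondrial and 0.0472 per h in cytosolic members. No cytosolic member fell when any library was left out (0 to 0). Over all genes, those that fell (5996) were 2951 with posterior weights and 3594 to 6318 when a library was left out. They were 5440 by labelled abundance and 6242 with times exchanged. Those that rose (136) were 523 with times exchanged, 56 on a logit scale and 33 by labelled abundance. When a library was left out, 57 to 226 genes rose. By T>C rate, falling mitochondrial members (13) were 5 to 14 and cytosolic ones (3) were 0 to 8 when a library was left out. All genes that fell (7664) were then 2643 to 9213. With times exchanged, 12 cytosolic members and 10072 of all genes fell. Without the 30 and 60 min libraries, 8 cytosolic members and 9260 of all genes fell. Total reads of mitochondrial, cytosolic and all genes called (0 each by edgeR) were 2, 9 and 2884 with times exchanged, 1, 1 and 559 without both libraries, 1, 1 and 650 by DESeq2, and up to 1, 4 and 1413 when a library was left out; with no low count filter all genes came to 399.

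Of single genes, the labelled share slope reversed for Fars2 without the 150 min library (-0.00432 to 0.217 per h when a library was left out) and, by labelled abundance, for Lars (0.0158) and Kars (0.0353). Total read slopes reversed for Pars2 (-0.0988 to 0.0704 log2 units per h when a library was left out) and Rars2 (-0.0732 to 0.0942) without the 150 min library, and for Nars2 (-0.0813 to 0.0136) without the 30 min library. Wars2 also lost its call with no read minimum (adjusted p = 0.0667), posterior weights (0.249) and labelled abundance (0.0553). The causes were not tested. Time points with 1 library each limit all slopes, and Wars2, with as few as 151 reads in a library, is the least deeply read member.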
